A study of Caenorhabditis elegans with 15 samples.

Results

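The genes described here are the annotated subunits of the 26S proteasome of Caenorhabditis elegans, followed across 2 met-2 mutants and a heat stress in early embryos. They were taken as every gene whose WormBase symbol starts with pas-, pbs-, rpt- or rpn-, which gave 33 of the 20392 genes in the count table. The rule itself used no measured value. The 33 genes comprised 7 genes for the alpha ring of the 20S core (pas-), 7 for its beta ring (pbs-), 6 ATPases of the 19S base (rpt-), 4 other base subunits (rpn-1, rpn-2, rpn-10 and rpn-13) and 9 lid genes, of which rpn-6.1 and rpn-6.2 are paralogues. All 33 passed the filter on low counts, which left 15471 genes for testing.

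The proteasome degrades proteins that carry ubiquitin chains. The 19S particle binds the chains through receptor subunits, the lid deubiquitinase RPN-11 removes them, the ring of RPT ATPases unfolds the substrate, and the beta ring of the 20S core cuts it. The subunits are needed together, and in C. elegans the transcription factor SKN-1A, processed through PNG-1 and DDI-1, raises their transcription when proteasome activity is impaired. Early embryos carry a large maternal load of these transcripts and depend on the proteasome for the meiotic and mitotic cell cycles.

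RNA was sequenced from early embryos, harvested before the bean stage, of N2 Bristol as the wild type (WT), of a strain with the deletion allele met-2(n4256) (met-2Δ), and of a strain with met-2(gw1660), a point mutation in the SET domain (met-2-CD), named by the submitters as catalytically deficient. MET-2 is the worm homolog of the H3K9 methyltransferase SETDB1. There were 3 biological replicates of each strain at 20 °C and 3 more of WT and of met-2Δ after 1 h of culture at 37 °C (heat stress, HS), 5 groups in all with no HS group of met-2-CD. Both alleles, on chromosome III, belong to the strain and were present in mothers and embryos alike, and each kind of mutant was represented by 1 allele. RNA came from whole embryo preparations, in which fewer cells of a type and less RNA per cell cannot be told apart.

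Library totals ranged from 45.8 to 58.8 M counts in WT at 20 °C, from 38.1 to 48.6 M in met-2-CD and from 16.1 to 27.1 M in the other groups, so depth cannot be told apart from group. Replicates varied by a common biological coefficient of variation of 11.8%. Transcripts of met-2 stood at 306 to 318 CPM (counts per 1000000, scaled by TMM) in the WT libraries of the lower temperature and at 32.5 to 34.2 CPM in those of met-2Δ, and the 15 early embryo markers together reached 2303 to 3881 CPM in every library. Within that sum 7 of the 15 were higher in all WT libraries at 20 °C than in the other 12, most of all the endoderm genes end-1 (34.2 to 36.8 CPM against 5.50 to 13.6 CPM), end-3 (9.76 to 12.3 CPM against 1.66 to 5.26 CPM) and med-1 (1.62 to 2.76 CPM against at most 0.552 CPM), and 0 were lower, and their part in the results was not tested. Sums of other markers rose in WT after HS. Adult intestine markers had 0.927 to 2.38 CPM in WT at 20 °C and 10.8 to 18.4 CPM in WT after HS. Sperm markers had 0.389 to 0.591 CPM and 6.52 to 8.46 CPM in these groups, the highest of any library. Neuron markers had 1.68 to 2.33 CPM and 39.9 to 55.9 CPM, and hypodermis markers 30.9 to 78.1 CPM and 151 to 196 CPM. The sum of 4 muscle markers was 51.8 to 125 CPM in WT and 321 to 718 CPM in the mutants at 20 °C. It was 1444 to 2807 CPM after HS. The WT libraries at 20 °C stood apart from the other 12: 28 genes were at 3 counts or fewer in all 3 of them and at 20 or more in all the others, or the reverse, whereas no such gene was found for any other group. None of the 28 was a proteasome gene, but every comparison with WT at 20 °C rests on these libraries. The heat response of WT and its difference from that of met-2Δ are therefore also given with met-2-CD as the 20 °C baseline. That baseline brings in the met-2-CD genotype, so it cannot tell a shift of the WT libraries from a genotype effect.

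Per kilobase of exon, 32 of the 33 genes fell within a 6.23-fold range in WT at 20 °C, the widest of the 5 groups. There they ranged from 73.9 CPM per kb for pas-4 to 461 CPM per kb for pbs-1, with a median of 168 CPM per kb. The coefficient of variation across these 32 genes was 47.5% for WT, 29.5% for met-2Δ and 27.6% for met-2-CD before HS, and 36.9% for WT and 35.2% for met-2Δ after it. Unequal levels were thus most marked in the WT libraries at 20 °C, where pbs-1, pas-5 and rpn-12 stood highest. The exception to this range was rpn-6.2 (WBGene00010309; III: 8999817 to 9001999, WBcel235), which had 29 to 69 counts in a library and 0.899 CPM per kb in WT at 20 °C. Its paralogue rpn-6.1 (WBGene00004462; III: 6959110 to 6962001), the gene of the RPN-6 lid subunit whose raised dosage is known to protect worms from proteotoxic stress, had between 178 and 271 CPM in every library.

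**Figure D1:**
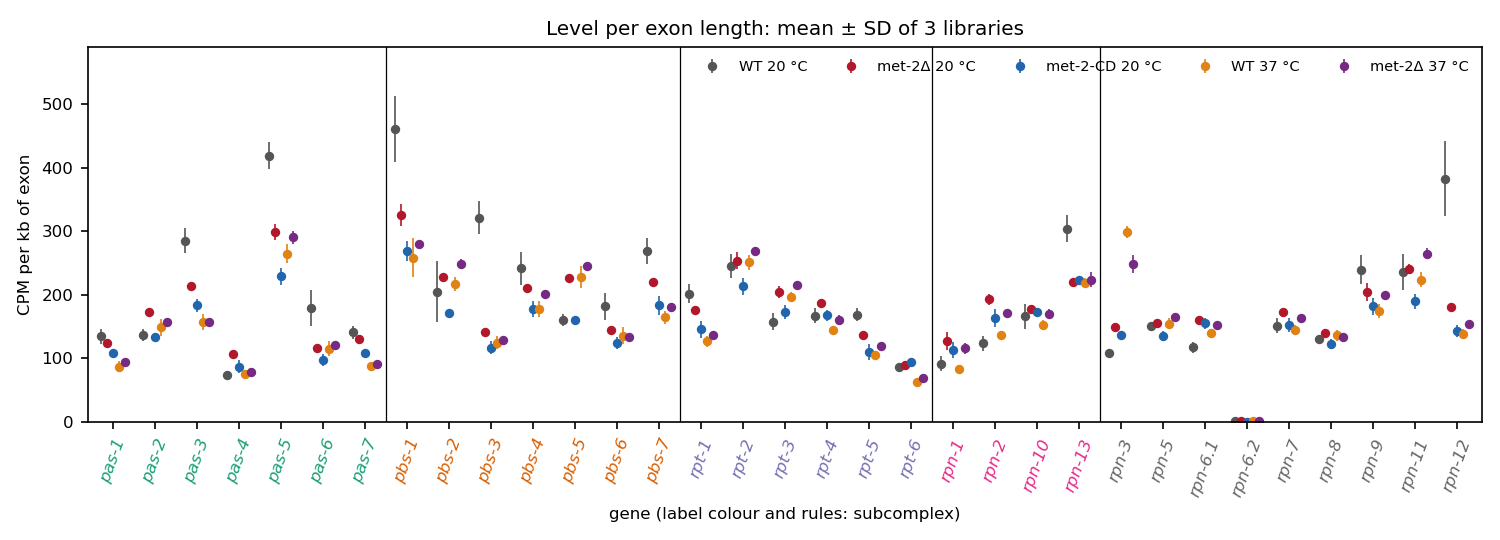
Level of each of the 33 genes in CPM per kb of exon (y axis), with genes on the x axis ordered by subcomplex (alpha ring, beta ring, ATPases, other base subunits, lid); points coloured by group are means and bars SDs of 3 libraries. The genes pbs-1, pbs-3, pas-5 and rpn-12 reach their highest level in WT at 20 °C, rpn-3 reaches its highest level after HS, and rpn-6.2 lies near 0 throughout.

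Summed over the 33 genes in TMM-scaled CPM at 20 °C, the WT libraries reached 7401, 7429 and 8415 CPM, those of met-2Δ 7393, 7633 and 7566 CPM and those of met-2-CD 6808, 6503 and 6073 CPM. After HS the sums were 6364, 6617 and 6997 CPM in WT and 7374, 7141 and 7211 CPM in met-2Δ. All met-2-CD libraries lay below all met-2Δ and WT libraries at 20 °C, and the WT libraries after HS lay below the met-2Δ libraries of either temperature. As an unscaled share of all counts the order was another: the met-2Δ libraries at 20 °C, with 0.768%, 0.802% and 0.761%, stood above WT (0.669%, 0.679% and 0.740%) and met-2-CD (0.647%, 0.654% and 0.604%). After HS these shares were 0.661%, 0.692% and 0.750% for WT and 0.770%, 0.749% and 0.744% for met-2Δ, so that WT c was among the met-2Δ libraries.

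**Figure D2:**
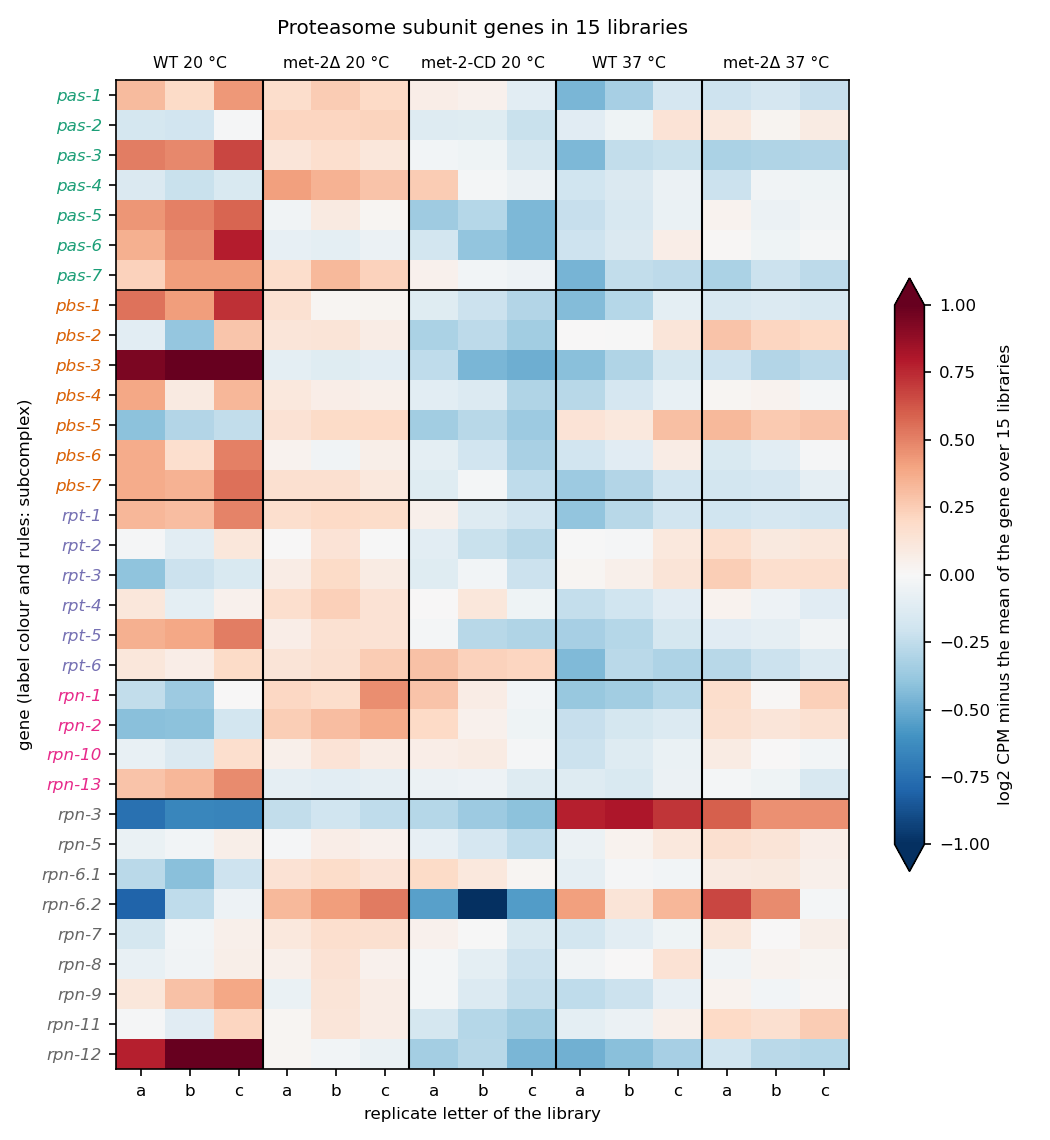
Heat map of log2 CPM of each gene (rows, in subcomplex order) minus its mean over the 15 libraries (columns, grouped by genotype and temperature, with the letter of the library). Colours are clipped at 1 in either direction; pbs-3 and rpn-12 are above their mean in the 3 WT libraries at 20 °C, rpn-3 is above its mean in the 6 HS libraries, and most genes are below their mean in met-2-CD.

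The 2 mutants separate loss of the MET-2 protein from loss of its catalytic activity. The comparison between them does not use the group means of WT. The filter on low counts, the TMM scaling and the dispersion came from all 15 libraries. The calls are thus not independent of the WT libraries. With few exceptions the proteasome genes were slightly higher in the deletion mutant than in the catalytic mutant. Of the 33 genes, 31 had a positive log2 fold change (log2FC), against 50.5% of all genes tested and 42% of the 4301 with a mean of at least 50 CPM, and the median was 0.25 against 0.01 for all genes tested and −0.05 for the 4301. In 27 of the 33 genes every met-2Δ library exceeded every met-2-CD library, a separation seen in this direction for 22% of all genes, and in 0 of the 33 was it the reverse, as it was for 24.1% of all genes. At a false discovery rate (FDR) below 0.01 by the quasi-likelihood test of edgeR, adjusted over all genes tested, 10 of the 33 were higher and 0 lower, against 9.58% of all genes higher and 11% lower, and 8.32% and 19.2% of the genes with at least 50 CPM. The count of lower genes was also 0 at an unadjusted p below 0.05 and with DESeq2.

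All 7 alpha ring genes had positive values, between 0.21 and 0.38, and 2 passed the test. One of these was pas-2, with 146, 146 and 147 CPM in met-2Δ and 115, 115 and 107 CPM in met-2-CD, which did not overlap (log2FC 0.38 ± 0.07 SE, edgeR FDR 0.00081). The other, pas-5, had a log2FC of 0.38 ± 0.06. All 7 beta ring genes were positive as well, between 0.22 and 0.51, and 4 passed.

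Of the 3 beta subunits that carry the peptidase sites, 2 were among the largest differences. The chymotrypsin-like subunit gene pbs-5 (WBGene00003951; I: 14719167 to 14720477) had 234.8, 243 and 244 CPM in met-2Δ and 167, 176 and 165 CPM in met-2-CD. These libraries lay well apart, and the log2FC was 0.51 ± 0.06 (edgeR FDR 4.6e-05). The trypsin-like subunit gene pbs-2 (WBGene00003948; I: 12967216 to 12968280) had 231, 233 and 224 CPM against 171, 178 and 168 CPM, again without overlap, with a log2FC of 0.41 ± 0.11 (edgeR FDR 0.0099) that sat at the threshold, and the call was lost when any 1 of the 15 libraries other than WT b or c at 20 °C was left out. The caspase-like subunit gene pbs-1 (WBGene00003947; IV: 1708814 to 1709745) had a log2FC of 0.27 ± 0.09 and did not pass (edgeR FDR 0.025).

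The smallest of the called differences were those of pbs-7, rpt-1 and pbs-3. The beta ring gene pbs-7 had 196, 196 and 189 CPM in met-2Δ and 162, 173 and 147 CPM in met-2-CD (0.27 ± 0.07). The ATPase gene rpt-1 had 264, 268 and 265 CPM and 243, 214 and 205 CPM (0.27 ± 0.07), and neither gene showed overlap. Among the other ATPases rpt-5 passed (0.32 ± 0.07), and rpt-6 at −0.07 ± 0.06 was 1 of the 2 genes with a negative value. No other base gene passed: the scaffold genes rpn-1 and rpn-2 had 0.17 ± 0.10 and 0.24 ± 0.07, and the ubiquitin receptor genes rpn-10 and rpn-13 had 0.04 ± 0.07 and −0.01 ± 0.06. All 9 lid genes were positive, and the deubiquitinase gene rpn-11 (WBGene00004467; II: 4043055 to 4044546) had 251, 232 and 222 CPM in met-2-CD and 288, 307 and 298 CPM in met-2Δ (log2FC 0.34 ± 0.08, edgeR FDR 0.0036). The other lid gene to pass was the scarce rpn-6.2, at 2.21, 2.36 and 2.53 CPM in met-2Δ and 1.21, 0.852 and 1.20 CPM in met-2-CD, which differed by 1.12 ± 0.23 on the log2 scale (edgeR FDR 0.0019). Of the 33 genes 1, rpn-6.2, was past a fold change of 2 and higher in this comparison, against 4.96% of all genes.

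The number of calls here depended on single libraries and on scaling, the shared direction less so. Leaving out any 1 of the met-2Δ libraries at 20 °C, or met-2-CD b or c, left 4 calls, and leaving out WT b after HS or any met-2Δ library after HS left 6, while scaling by library totals gave 22. Over the other settings tried, between 31 and 33 of the genes were positive and the median lay between 0.22 and 0.32.

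**Figure D3:**
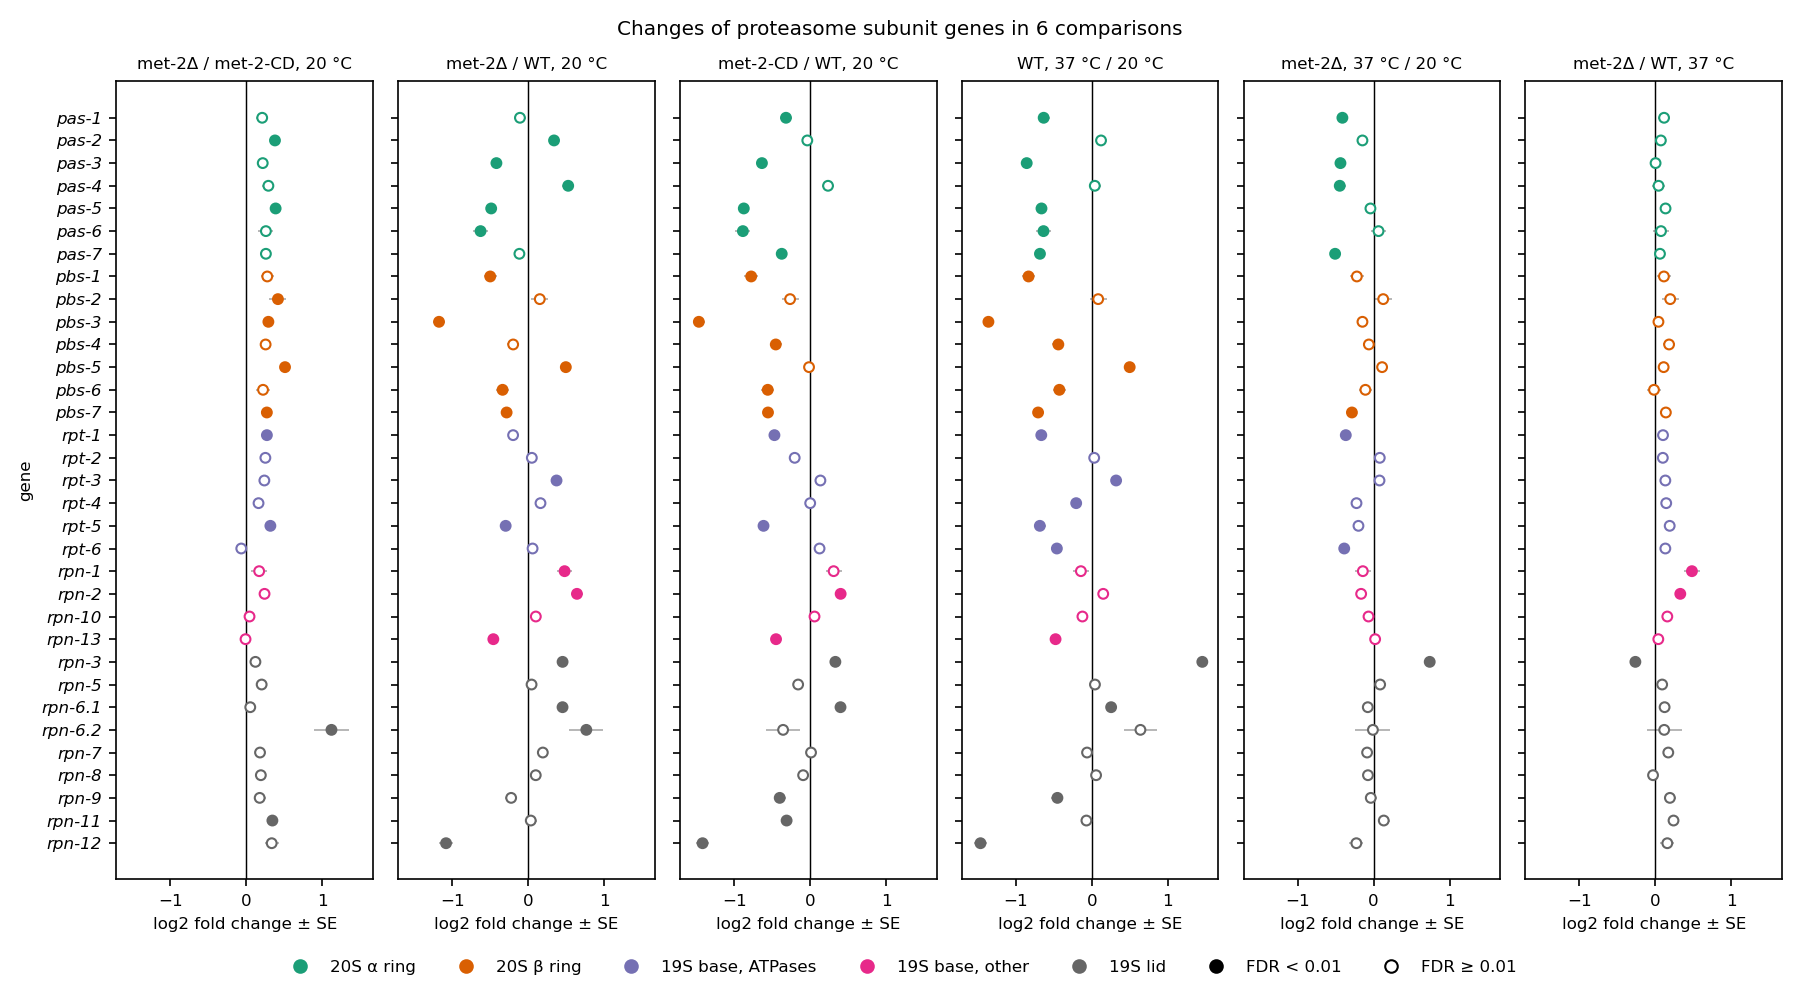
Log2 fold change with its SE (x axes) of the 33 genes (y axis, coloured by subcomplex) in 6 comparisons, 1 per panel. Filled points passed FDR below 0.01. Nearly all points lie slightly right of 0 in met-2Δ against met-2-CD and in met-2Δ against WT at 37 °C, whereas comparisons with WT at 20 °C spread from −1.47 (rpn-12) to 1.45 (rpn-3).

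Against WT at 20 °C the genes moved in both directions. In met-2Δ 9 of the 33 were higher and 10 lower, close to the background of 28.2% and 27.5% of all genes. Of the genes with a mean of at least 50 CPM, 20.9% were higher and 44.9% lower. The median log2FC was 0.04, against 0.07 for all genes and −0.18 for those with at least 50 CPM. For met-2-CD the numbers were 3 and 16, against 26.5% and 24.9% of all genes and 24.8% and 40.4% of the genes with at least 50 CPM. The median was −0.31, against 0.04 for all genes and −0.12 for those with at least 50 CPM. Both comparisons share the WT libraries, so their values are given side by side and are not independent of each other.

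The 20S core held most of the lower genes. In the alpha ring, met-2Δ had 2 higher and 3 lower of 7, and met-2-CD 0 higher and 5 lower. The gene pas-6 (WBGene00003927; V: 5583161 to 5584343) had 155, 168 and 209 CPM in WT, 115, 113 and 116 CPM in met-2Δ and 107, 92.2 and 89.0 CPM in met-2-CD. All WT libraries exceeded all mutant ones, and it fell by 0.63 ± 0.10 and 0.88 ± 0.10 on the log2 scale. In contrast, pas-4 (WBGene00003925; I: 8727218 to 8728487) stood at 66.6, 63.0 and 66.2 CPM in WT and at 98.1, 93.9 and 89.9 CPM in met-2Δ, where it rose (log2FC 0.53 ± 0.08, edgeR FDR 2.9e-05), and at 87.6, 72.7 and 70.6 CPM in met-2-CD, where the log2FC of 0.24 ± 0.08 did not pass (edgeR FDR 0.016).

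The beta ring gave 1 higher and 4 lower of 7 in met-2Δ, and for met-2-CD again 0 and 5. The structural subunit gene pbs-3 (WBGene00003949; II: 4954480 to 4955427) had 250.05, 273 and 294 CPM in WT, 122, 119.8 and 121 CPM in met-2Δ and 109, 94.6 and 93.0 CPM in met-2-CD. Its WT libraries were well above every mutant library, and the log2FC was −1.17 ± 0.08 in met-2Δ (edgeR FDR 4.0e-09) and −1.46 ± 0.08 in met-2-CD (edgeR FDR 4.9e-10). Of the catalytic genes, pbs-1 fell in both mutants (−0.50 ± 0.09 and −0.77 ± 0.09), pbs-2 passed in neither (0.15 ± 0.11 and −0.26 ± 0.11), and pbs-5 rose in met-2Δ (0.49 ± 0.06) and stood at −0.01 ± 0.06 in met-2-CD.

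In the 19S particle, met-2Δ had 6 higher and 3 lower of 19 genes and met-2-CD 3 higher and 6 lower. Most 19S genes have 1 to 2 kb of exon. Among all genes of that length with at least 50 CPM, 17.7% were higher and 51.7% lower in met-2Δ. In met-2-CD these shares were 18.2% and 50.1%. Among the ATPases rpt-3 rose in met-2Δ (0.37 ± 0.07), rpt-5 fell in both mutants (−0.30 ± 0.07 and −0.61 ± 0.07) and rpt-1 fell in met-2-CD (−0.47 ± 0.07). The scaffold gene rpn-2 (WBGene00004459; III: 6199184 to 6202594), which with rpn-1 encodes the large non-ATPase subunits on which the base is built, had 369, 372 and 434 CPM in WT, 585, 609.8 and 638 CPM in met-2Δ and 565, 509 and 479.8 CPM in met-2-CD. Both mutants lay above all WT libraries, and rpn-2 rose by 0.64 ± 0.07 and 0.40 ± 0.07. For rpn-1 (WBGene00004458; IV: 6906420 to 6909913) the values were 280.4, 259 and 333 CPM in WT and 383, 376 and 458 CPM in met-2Δ, a rise of 0.48 ± 0.10, and in met-2-CD the log2FC of 0.31 ± 0.10 did not pass (edgeR FDR 0.016).

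The ubiquitin receptors did not move together. The gene rpn-13 (WBGene00016981; III: 6340113 to 6341928) fell from 429, 445 and 489 CPM in WT to 332, 328 and 331 CPM in met-2Δ and 338, 340.1 and 321 CPM in met-2-CD (log2FC −0.46 ± 0.06 and −0.45 ± 0.06), with the mutant libraries tightly grouped. For rpn-10 (WBGene00004466; I: 10730712 to 10732424) the values of 0.10 ± 0.07 and 0.06 ± 0.07 passed in neither mutant.

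In the lid, rpn-12 (WBGene00004468; II: 11653124 to 11654192), whose yeast counterpart is the last subunit to join the lid, had a pattern like that of pbs-3. It had 269, 359 and 354 CPM in WT, 159, 155 and 150.1 CPM in met-2Δ and 124, 129.8 and 114 CPM in met-2-CD. Even the lowest WT library was above all others, and the log2FC was −1.08 ± 0.09 (edgeR FDR 5.5e-08) and −1.41 ± 0.09 (edgeR FDR 3.9e-09). With pbs-3 it was 1 of 2 genes of the set past a fold change of 2, both lower in either mutant, where the share of all genes was 8.43% for met-2Δ and 7.84% for met-2-CD.

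The other lid calls were mostly upward. For rpn-6.1, WT had 197, 178 and 205 CPM, met-2Δ 263, 269 and 262 CPM and met-2-CD 271, 255 and 241 CPM, with no overlap between WT and either mutant, and it rose by 0.45 ± 0.06 and 0.40 ± 0.06. The same held for rpn-3, which rose by 0.45 ± 0.06 and 0.33 ± 0.06. The paralogue rpn-6.2, at 1.02, 1.48 and 1.70 CPM in WT, passed in met-2Δ (0.76 ± 0.22, edgeR FDR 0.0070) and not in met-2-CD (−0.35 ± 0.23), and the call in met-2Δ was lost when WT a or b or any met-2Δ library at 20 °C, or WT c after HS, was left out. In met-2-CD rpn-9 (−0.40 ± 0.08) and rpn-11 (−0.31 ± 0.08) fell.

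The WT libraries at 20 °C stood apart from all others for a number of these genes. Of the 33 genes, 11 were higher in all 3 of them than in the other 12 libraries, against 23.1% of all genes, and 2, rpn-3 and rpn-6.1, were lower, against 20.1%. Scaling by library totals moved the median of all genes from 0.07 to 0.26 for met-2Δ and from 0.04 to 0.17 for met-2-CD, and gave 18 and 6 calls in met-2Δ and 7 and 14 in met-2-CD, higher and lower in that order. No called gene of the set changed direction under that scaling in these 2 comparisons. Leaving out met-2-CD c raised the higher calls in met-2-CD from 3 to 5.

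The HS comparisons ask how these genes of protein quality control respond to heat in each genotype. The heat shock gene hsp-70 served as a check of the HS labels, with a log2FC of 8.49 ± 0.25 in WT and 8.83 ± 0.27 in met-2Δ. Proteasome genes as a set were not induced. In WT 4 of the 33 rose and 17 fell, against 44% and 35.6% of all genes and against 18.2% and 60.1% of the genes with a mean of at least 50 CPM, and the median was −0.21 against 0.18 for all genes and −0.41 for those with at least 50 CPM. In met-2Δ 1 rose and 7 fell, against 17.3% and 21.2% of all genes and 9.6% and 33.1% of those with at least 50 CPM. The median was −0.09, against 0.04 for all genes and −0.11 for those with at least 50 CPM. At a fold change of 4, 0 of the 33 passed in WT, where 28.2% of all genes were higher and 4.02% lower, and 0 in met-2Δ, where 6.3% were higher and 0.53% lower.

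The gene that rose in both was rpn-3 (WBGene00004460; III: 8447353 to 8449346, WBcel235), a scaffold subunit of the lid. Its WT libraries had 194, 207 and 206 CPM before HS and 558, 569 and 535 CPM after it. In met-2Δ it had 274, 283 and 273 CPM at 20 °C and 491, 448 and 446 CPM after HS. The temperatures were far apart in both genotypes, with a log2FC of 1.45 ± 0.06 in WT (edgeR FDR 6.1e-12) and 0.74 ± 0.06 in met-2Δ (edgeR FDR 8.1e-08). At 20 °C met-2-CD had 267, 252 and 245 CPM, and set against these in place of WT the rise in WT after HS was 1.12 ± 0.06.

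The position of rpn-3 was examined after its value had been seen. In the WBcel235 annotation it lies head to head with hsp-110 (III: 8443910 to 8446909, opposite strand), a gene of the HSP110 family of Hsp70 nucleotide exchange factors, with 443 bases between the annotated ends. Counts were taken on the strand of each gene. The kit of each library is not given, and whether reads of hsp-110 entered the count of rpn-3 was not tested. For hsp-110 the WT libraries had 216, 229.6 and 237 CPM before HS and 3602, 3210.2 and 3029.97 CPM after it. The met-2Δ libraries had 327, 341 and 359.9 CPM and then 2490.1, 2118 and 2333 CPM.

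Its log2FC was 3.85 ± 0.09 in WT and 2.76 ± 0.09 in met-2Δ. The difference between the genotypes in the heat response was −0.72 ± 0.08 for rpn-3 (edgeR FDR 2.7e-06) and −1.09 ± 0.12 for hsp-110 (edgeR FDR 1.7e-06). With met-2-CD as the 20 °C baseline, an alternative added for hsp-110 and the other genes beside the proteasome after seeing the data, the rise of hsp-110 in WT was 2.97 ± 0.09, and its difference between the genotypes, at −0.21 ± 0.12, no longer passed (edgeR FDR 0.19). Between the HS libraries alone, hsp-110 had a log2FC of −0.50 ± 0.08 in met-2Δ against WT (edgeR FDR 0.00058). Next to rpn-3 on its other side, mrpl-32, a mitochondrial ribosomal protein gene, rose by 0.48 ± 0.14 in WT, and beyond hsp-110 ufbp-1 fell by 0.73 ± 0.07. Against met-2-CD these values were 0.58 ± 0.14 for mrpl-32 and 0.12 ± 0.07 for ufbp-1, which had thus turned and did not pass (edgeR FDR 0.16).

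In all, 21 of the 33 genes have a partner head to head within 1 kb, and of the 21 partners hsp-110 alone is named as a heat shock gene. The other partner with a log2FC above 1 in WT after HS was CD4.11, 789 bases from pas-6, at 2.33 ± 0.50, while pas-6 fell by 0.64 ± 0.10. For rpn-12 the partner is rad-23 (394 bases away), which encodes a shuttle factor that brings ubiquitylated proteins to the proteasome. In WT after HS rad-23 had a log2FC of −0.66 ± 0.12 and rpn-12 one of −1.47 ± 0.09. Set against met-2-CD, the rise of CD4.11 was 1.49 ± 0.46, and rad-23 (0.16 ± 0.12) and rpn-12 (−0.05 ± 0.09) did not pass.

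**Figure D4:**
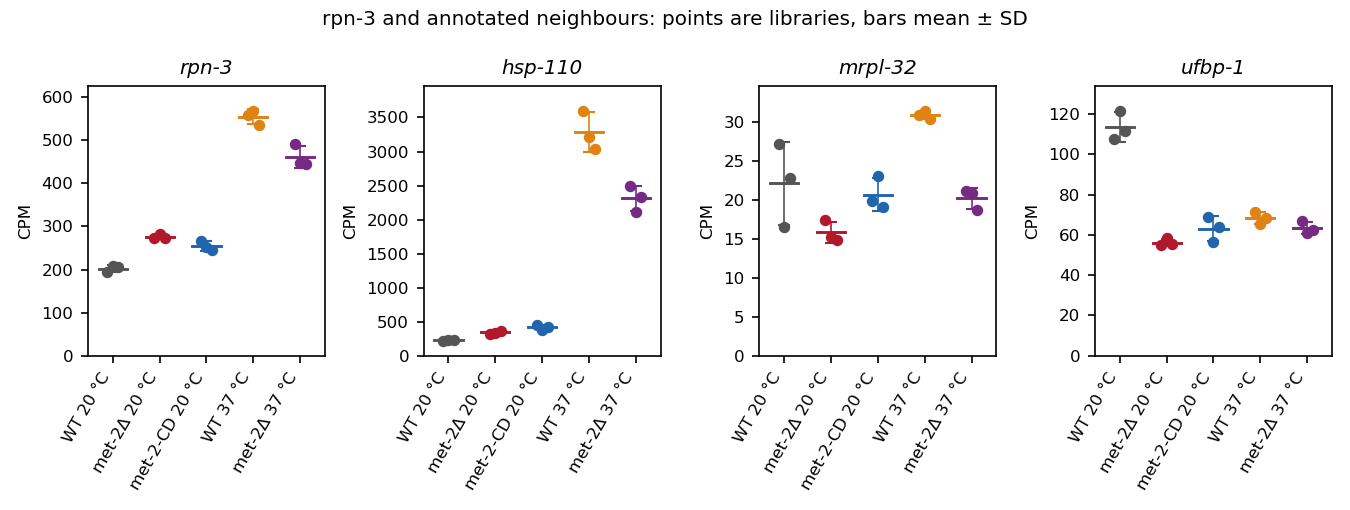
CPM (y axes, each from 0) of rpn-3, hsp-110, mrpl-32 and ufbp-1 in the 5 groups (x axes). Points are libraries, and bars are the mean and SD of 3 libraries. Levels of rpn-3 and hsp-110 are higher in every HS library than in every library at 20 °C, and after HS higher in WT than in met-2Δ.

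The core genes made up most of the falls in WT after HS. Of the 7 alpha ring genes 5 fell and 0 rose, with a median of −0.64, and of the 7 beta ring genes 5 fell and 1 rose, with a median of −0.44. All 7 alpha ring genes and 5 of the 7 beta ring genes have under 1 kb of exon. Among all genes of that length with at least 50 CPM, 71.4% fell and 17.1% rose, with a median of −0.72. The gene pas-3 (WBGene00003924; I: 5105110 to 5106048) went from 247, 242 and 275 CPM to 127, 146 and 148 CPM (log2FC −0.86 ± 0.07, edgeR FDR 1.0e-08), and pbs-3 from the levels given above to 97.6, 105 and 115 CPM (−1.36 ± 0.08). In contrast, pbs-5 rose from 159.7, 173 and 179 CPM to 234, 228 and 262 CPM (0.50 ± 0.06, edgeR FDR 1.6e-06), while pbs-1 fell (−0.83 ± 0.09) and pbs-2 stood at 0.08 ± 0.11, so the 3 catalytic genes went separate ways.

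Among the 6 ATPases 4 fell and rpt-3 rose from 193, 219 and 229 CPM to 259, 263 and 278 CPM (0.32 ± 0.07), a call that was lost without WT a at 20 °C (0.17). The smallest of the falls, rpt-4 at −0.21 ± 0.07, turned to 0.02 when libraries were scaled by their totals. Of the other base genes only rpn-13 passed, falling by 0.48 ± 0.06, and the values of rpn-1, rpn-2 and rpn-10 were −0.14 ± 0.10, 0.15 ± 0.07 and −0.12 ± 0.07. In the lid rpn-3 and rpn-6.1 (0.25 ± 0.06) rose, rpn-12 fell to 112, 118 and 125 CPM, rpn-9 fell by 0.45 ± 0.08, and rpn-11 stood at −0.07 ± 0.08.

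In met-2Δ the falls after HS were smaller and again mainly in the alpha ring, where 4 of 7 passed. Among all genes of at least 50 CPM with under 1 kb of exon, 46.4% fell in this comparison. From 121, 134 and 126 CPM pas-7 went to 86.3, 92.7 and 89.5 CPM (log2FC −0.51 ± 0.07). For pas-4 the values were 63.6, 71.9 and 71.5 CPM after HS (−0.45 ± 0.08) and for pas-3 139, 141 and 141.8 CPM (−0.44 ± 0.07), all below every met-2Δ library at 20 °C. The remaining falls were those of pas-1 (−0.41 ± 0.08), rpt-6 (−0.39 ± 0.06), rpt-1 (−0.37 ± 0.07) and pbs-7 (−0.29 ± 0.07). The genes with the largest falls in WT, pbs-3 and rpn-12, had −0.15 ± 0.08 and −0.23 ± 0.09 in met-2Δ and did not pass.

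The number of falls in WT after HS depended on the 20 °C baseline. The proteasome genes were lower in met-2-CD than in WT at 20 °C (median −0.31), so fewer falls against met-2-CD follow by subtraction. That baseline cannot separate genotype from a shift of the WT libraries. With met-2-CD in place of WT as the 20 °C baseline, 6 genes rose and 7 fell in WT after HS. The shares were 36% and 30% of all genes, and 12.4% and 51.8% of those with at least 50 CPM. Of the 21 genes called against WT at 20 °C, 7 kept direction and call, 8 kept direction alone and 6 turned, among them pbs-3, at 0.10 ± 0.08, and rpn-6.1, at −0.15 ± 0.06. Against met-2-CD rpn-12 stood at −0.05. Leaving out WT a at 20 °C lowered the number of rises from 4 to 2, and scaling by library totals, which moved the median of all genes from 0.18 to 0.41, gave 11 rises and 13 falls. The muscle, neuron, adult intestine and sperm markers given above, which were highest after HS, moved with the same comparison. Their part in it was not tested.

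After HS met-2Δ and WT differed little in these genes. In the comparison at 37 °C 30 of the 33 genes had a positive log2FC, against 38.9% of all genes and 66.6% of those with at least 50 CPM, and the median was 0.12, with −0.13 for all genes tested and 0.09 for those of at least 50 CPM. Only 2 passed as higher and 1 as lower, against 6.59% and 10.5% of all genes and 13.6% and 5.79% of those with at least 50 CPM. In 14 of the 33 all met-2Δ libraries exceeded all WT ones, against 19.9% of all genes, and in 1, rpn-3, all lay below, against 36.8%.

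The higher calls were the scaffold pair of the base, the only 2 proteasome genes with at least 2 kb of exon. Among all genes of that length with at least 50 CPM, 22.5% were called higher, with a median of 0.15. For rpn-1 the HS libraries had 375, 335 and 391 CPM in met-2Δ and 255, 262 and 273 CPM in WT, without overlap (log2FC 0.48 ± 0.10, edgeR FDR 0.0035). For rpn-2 they had 552, 535 and 548 CPM against 419, 437 and 448 CPM, also without overlap (0.33 ± 0.07, edgeR FDR 0.0042). The lower call was rpn-3 (−0.26 ± 0.06, edgeR FDR 0.0034). These 3 calls rest on few libraries: leaving out WT a or b, or met-2Δ a or c, after HS left 0 higher calls, WT c or met-2Δ b left 1, and a model with the 6 HS libraries alone gave 13 higher and 0 lower. The call of rpn-3 was lost in that model, at −0.17, and when WT a or b or met-2Δ b or c after HS, or WT b, met-2-CD b or met-2Δ a or b at 20 °C, was left out.

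The difference between the heat responses of met-2Δ and WT was tested as an interaction. It passed for 15 genes, 11 with a higher and 4 with a lower response in met-2Δ, against 23.1% and 27% of all genes and 44.7% and 13.7% of the genes with at least 50 CPM. The largest were rpn-12 at 1.24 ± 0.13 (edgeR FDR 1.1e-06) and pbs-3 at 1.21 ± 0.11 (edgeR FDR 2.8e-07), both with their highest level in WT at 20 °C, followed by pas-6 at 0.70 ± 0.14. After HS the genotypes lay close in level for these genes: rpn-12 had 112, 118 and 125 CPM in WT and 137, 131 and 129 CPM in met-2Δ, and pbs-3 had 97.6, 105 and 115 CPM and 113, 106 and 108 CPM. For pas-6 the HS libraries had 105, 110.1 and 127 CPM and 122, 118 and 119.6 CPM. The genotypes overlapped for pbs-3 and pas-6 and not for rpn-12. The 4 with a lower response were rpn-3, pas-4 (−0.49 ± 0.11), pbs-5 (−0.39 ± 0.09) and rpn-6.1 (−0.33 ± 0.09). In pas-4 the WT libraries after HS (64.1, 66.5 and 70.6 CPM) were near those at 20 °C while the met-2Δ libraries fell, and in pbs-5 the met-2Δ libraries after HS had 266, 255 and 259.5 CPM. With met-2-CD as the 20 °C baseline of WT 0 genes had a higher response and 2 a lower one. The shares of all genes were 5.27% and 8.87%, and those of genes with at least 50 CPM 12.9% and 2.46%. Of the 15 calls 2 kept direction and call, rpn-3 (−0.38 ± 0.08, edgeR FDR 0.0032) and pbs-5, whereas 10 turned. Leaving out WT a or b, or met-2Δ a or b, at 20 °C left 1 of the 4 lower calls, and leaving out any met-2-CD library left 2.

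Changes in several comparisons, those against WT at 20 °C among them, moved with exon length. The 13 proteasome genes with less than 1 kb of exon are the 7 alpha ring genes, 5 of the beta ring and rpn-12. Of them 8 were lower and 2 higher in met-2Δ, while 11 were lower and 0 higher both in met-2-CD and in WT after HS. The share of lower genes among the 668 of at least 50 CPM and under 1 kb was 62% for met-2Δ, 62.1% for met-2-CD and 71.4% for WT after HS, with medians of −0.49, −0.49 and −0.72.

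Across the 32 genes without rpn-6.2, Spearman's rho between exon length and log2FC was 0.51 for met-2Δ, 0.62 for met-2-CD and 0.45 for WT after HS, and across 4255 genes with at least 50 CPM it was 0.30, 0.36 and 0.24. The sign was the same in the comparisons without the WT libraries of 20 °C for met-2Δ after HS (0.26 across the 32 genes and 0.29 across the 4255) and for met-2Δ against WT at 37 °C (0.22 and 0.30). For met-2Δ against met-2-CD it was −0.56 across the 32 genes and −0.15 across the 4255. These are descriptions across genes of the same libraries, which are not independent replicates. With the length trend of each library removed, an alternative chosen after seeing the data, the calls, higher and lower, were 13 and 4 for met-2Δ, 7 and 11 for met-2-CD, 9 and 14 for WT after HS, and 12 and 0 for met-2Δ against met-2-CD. Of the called genes, pbs-7 in met-2Δ (0.02) and pas-1 in met-2-CD (0.00) turned under it. The part of exon length in these results was not tested further.

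**Figure D5:**
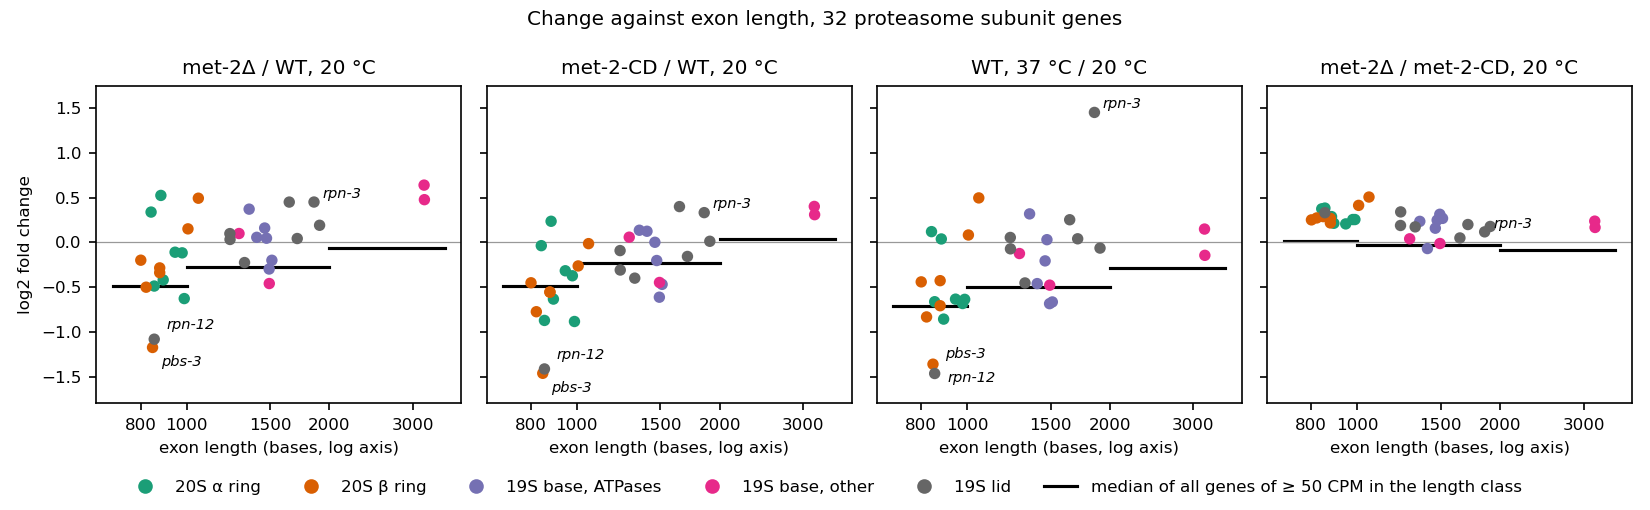
Log2 fold change (y axis) against exon length in bases (x axis, log scale) of 32 proteasome genes coloured by subcomplex, in 4 comparisons. Black lines are medians of all genes of at least 50 CPM with under 1 kb, 1 to 2 kb and at least 2 kb of exon; in the 3 comparisons with WT at 20 °C the shorter genes lie lower, as do the medians.

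Genes that act on or beside the proteasome were compared on the same scale. The gene dss-1, for the small lid subunit known in yeast as Sem1, did not pass in any comparison, with values from −0.15 to 0.15. Of the regulators of proteasome gene transcription, skn-1 (0.11 ± 0.13 in WT after HS) and png-1 (0.16 ± 0.09 in met-2Δ after HS) did not pass in any comparison, whereas the protease gene ddi-1 fell after HS by 0.70 ± 0.05 in WT (0.98 ± 0.05 against met-2-CD) and by 0.98 ± 0.05 in met-2Δ. The gene skn-1 is measured as a whole here, and its isoforms were not told apart.

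Among 10 proteasome-related genes, 3 rose and 4 fell in WT after HS, beside the 44% and 35.6% of all genes and the 18.2% and 60.1% of those with at least 50 CPM given above, and with met-2-CD as the baseline 1 rose and 3 fell. The gene ubh-4, for the deubiquitinase docked on RPN-13, went from 202, 236 and 224 CPM to 65.1, 73.0 and 68.9 CPM (log2FC −1.68 ± 0.07), and aip-1, for an arsenite-inducible proteasome-associated protein, from 39.2, 37.1 and 37.98 CPM to 127, 106 and 103 CPM (1.56 ± 0.08). Both sets of libraries lay far apart, and against met-2-CD the values were −0.93 ± 0.07 and 2.17 ± 0.09. Of 16 genes listed for ubiquitin and CDC48, 4 rose and 8 fell in WT after HS (median −0.24). With met-2-CD as the baseline 3 of these rose and 7 fell. The polyubiquitin gene ubq-1 rose in WT after HS (1.39 ± 0.07), and at 20 °C both mutants were above WT (1.28 ± 0.07 for met-2Δ, 1.19 ± 0.07 for met-2-CD). It did not pass in met-2Δ after HS (0.17 ± 0.07, edgeR FDR 0.051) or in WT after HS against met-2-CD (0.21 ± 0.07, edgeR FDR 0.012).

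Other multi-subunit machines with a role in protein quality or turnover are given beside the same shares of all genes after HS in WT. All 8 genes of the CCT chaperonin rose, with a median of 0.70, from cct-6 at 0.38 to cct-4 at 1.46, while the proteasome genes had a median of −0.21 and the genes with at least 50 CPM one of −0.41. Of 18 genes of the cullin ligase core 2 rose and 14 fell (median −0.75), led by ned-8, the ubiquitin-like modifier of cullins, at −2.22. Of 14 genes of the anaphase-promoting complex 0 rose and 10 fell (median −0.69). Of 6 genes of the COP9 signalosome, which is related to the lid in structure, 1 rose and 4 fell (median −0.46). The falling shares of these 3 lists were 77.8%, 71.4% and 66.7%, against 60.1% of the genes with at least 50 CPM. With met-2-CD as the baseline all 8 CCT genes still rose (median 0.71), 14, 11 and 5 genes of the 3 other lists fell, against 51.8% of the genes with at least 50 CPM, and ned-8 stood at −0.66 ± 0.07. In met-2Δ after HS the CCT genes had 6 rises and 0 falls, against 17.3% and 21.2% of all genes. Between met-2Δ and met-2-CD at 20 °C 0 of the 8 passed in either direction, with a median of 0.03. There 9.58% of all genes were called higher and 11% lower, so few calls would be awaited among 8 genes.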

How the data were processed

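The authors trimmed the reads with Trimmomatic, aligned them to ce10 with hisat2 through QuasR and counted reads with a unique alignment on the strand of each WS220 gene with qCount. The deposited values are these raw counts per gene, without scaling, length correction or pooling. The labels name a stranded total RNA kit after depletion of ribosomal RNA. The methods of the study name other kits as well, and which library was made with which is not given in the sources used here.

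With edgeR 4.0.16 under R 4.3.3 (limma 3.58.1), 1 model of the 5 group means was fitted over the 15 libraries without covariates, after filterByExpr and TMM scaling, and contrasts were tested by quasi-likelihood F statistics. P-values were adjusted by Benjamini-Hochberg over 15471 genes, and calls required an FDR below 0.01 with no limit on fold change. The fold limits of the study (2 between genotypes, 4 between temperatures) are given beside the calls. SEs were derived from the F statistic. The script was tested on simulated data. Symbols were matched by WormBase identifier for 19182 of the 20392 genes, and positions and exon lengths are those of WBcel235, matched by identifier with no conversion from ce10. Levels per kb use the union of annotated exons. Column names give the group and a letter in place of the replicate number of the labels, so libraries were assigned to groups and not to single samples. No replicate pair agreed within sampling noise (chi-square per degree of freedom 6.63 to 53.6). With 16.1 M counts in the smallest library, 3 counts correspond to at most 0.18 CPM, which covers counting error only.

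The genes and lists were chosen with earlier results of these data known. For each comparison the 3 highest and the 3 lowest log2FC among called genes are given with their values by library. The catalytic beta subunits, the RPN-6 paralogues, the ubiquitin receptors and the deubiquitinase are given in any case. Alternatives were scaling by library totals or by RLE size factors, a Wald test in DESeq2 1.42.0, looser and stricter count filters, FDR below 0.05, thinning to the smallest library, models with only the groups compared, a replicate block, leaving out each library, met-2-CD as the 20 °C baseline and coding in place of exon length. The removal of a length trend, and the met-2-CD baseline and library totals for genes beside the proteasome, were added after the data had been seen. Of the names listed for related genes, pomp-1, ubqn-1, ubc-2, csn-7, csn-8 and apc-1 were not matched and are not analysed here.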

Additional observations from a re-analysis of the deposited data

Results flagged for a closer look

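The heat response differed between met-2Δ and WT, by the test of the difference itself, for 15 proteasome genes. In the 20S core the difference, met-2Δ minus WT, came to 0.42 for pas-3, −0.49 for pas-4, 0.62 for pas-5 and 0.70 for pas-6 in the alpha ring, and 0.61 for pbs-1, 1.21 for pbs-3, 0.38 for pbs-4, −0.39 for pbs-5 and 0.42 for pbs-7 in the beta ring, all on the log2 scale. In the 19S particle it was 0.48 for rpt-5, 0.50 for rpn-13, −0.72 for rpn-3, −0.33 for rpn-6.1, 0.42 for rpn-9 and 1.24 for rpn-12. All 15 differences use the WT libraries at 20 °C, which stood apart from the other 12. With met-2-CD as the 20 °C baseline, which brings in another genotype, 10 of the 15 turned. Of the others, rpn-3 and pbs-5 passed with either baseline, and pas-4, rpn-13 and rpn-9 kept their direction alone.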

How the results depend on the processing

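DESeq2, RLE scaling and thinning left all counts of called proteasome genes within 1.5 times, except 0 in place of 1 lower in met-2Δ against WT at 37 °C after thinning. In met-2Δ against WT at 20 °C, 9 higher and 10 lower became 15 higher with a filter of at least 10 CPM, 18 and 6 with library totals and 4 lower with the length trend removed. In met-2-CD against WT, 3 higher became 7 with the 10 CPM filter, with library totals and with the length trend removed, and 5 at FDR below 0.05, with 3 to 5 over single libraries left out. In met-2Δ against met-2-CD, 10 higher became 22 with the 10 CPM filter, library totals or FDR below 0.05, and 6 without a filter, with 4 to 10 over libraries left out. In WT after HS, 4 higher became 13 with the 10 CPM filter, 2 without a filter, 9 with the length trend removed and 11 with library totals (2 to 4 over libraries left out), and 17 lower became 7 against met-2-CD. In met-2Δ after HS, 1 higher became 4 with the 10 CPM filter and 2 with the length trend removed, and 7 lower became 11 at FDR below 0.05. At 37 °C, 2 higher became 13 and 1 lower became 0 with the groups compared alone, and 1 lower became 0 without a filter, with 0 to 3 and 0 to 1 over libraries left out. Of the differences in heat response, 11 higher became 6 with the 10 CPM filter or the length trend removed, 5 with library totals and 0 against met-2-CD (9 to 14 over libraries left out), and 4 lower became 8 with the 10 CPM filter or library totals, 2 without a filter or against met-2-CD and 7 at FDR below 0.05 (1 to 4 over libraries left out). With the fold limits of the study, 2 lower in each mutant at 20 °C and 1 higher in met-2Δ against met-2-CD were left, and 0 in every other count. Against met-2-CD the values of pbs-3 in WT after HS (0.10) and of the differences of pas-6 (−0.18), pbs-3 (−0.25) and rpn-12 (−0.18) were reversed, as were those of ufbp-1 (0.12) and rad-23 (0.16) in WT after HS. The causes were not tested.

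Whether library letters pair the samples cannot be decided here. Deviations of same-letter libraries from their group means correlated from −0.40 to 0.18 over 30 pairs, with 3 pairs over 0.1. Libraries of different letters were not correlated for reference. With a replicate block by letter the calls, higher and lower, were 8 and 10 for met-2Δ and 4 and 16 for met-2-CD against WT at 20 °C, 7 and 0 between the mutants, 4 and 16 for HS in WT, 1 and 7 for HS in met-2Δ, 2 and 1 at 37 °C, and 10 and 4 for the difference in heat response.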
